A study of Rattus norvegicus with 6 samples.

Results

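Glycolysis turns glucose into pyruvate through a chain of cytosolic enzymes, and most of its steps can be carried by any of several isoenzymes encoded by separate genes. Pyruvate is then reduced to lactate by lactate dehydrogenase and exported through monocarboxylate transporters, or enters the mitochondria and is oxidised by the pyruvate dehydrogenase complex, which is switched off by pyruvate dehydrogenase kinases. The pentose phosphate pathway branches off after the hexokinase step and supplies NADPH and ribose. Dividing progenitors of the embryonic brain are known for active glycolysis, and in the mature brain several of these isoenzymes differ between neurons and glia. The genes described here are a list of 37 symbols that covers glucose uptake, the glycolytic steps, lactate dehydrogenase and lactate transport, the pyruvate dehydrogenase complex and its kinases, and enzymes of the pentose phosphate pathway. All 37 were found among the 17337 gene names of the RNA-seq tables.

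The cells were untreated cortical neural progenitors of Sprague Dawley rats at embryonic day 14, grown with bFGF and EGF and collected after a second passage. PolyA-selected RNA of 2 biological replicates was sequenced, with a pair of technical libraries from each: replicate A gave A1 and A2, and replicate B gave B1 and B2. There was 1 condition, so that nothing is compared with a control, and the cortices came from embryos of either sex. Start-seq samples of the same series were not analysed here.

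The mRNA level is given as FPKM, the fragment count scaled to transcript length and to the mapped fragments of the library, which can be compared between genes. Values are the mean ± SD over replicates A and B (n = 2), with the technical libraries averaged first. The coverage behind 1 FPKM served as the measure of depth. It was 22.7 to 24.4 in A1, A2 and B1 and 6.83 in B2, so values of B2 rest on fewer reads. Where the mean of a gene of the list reached 10 FPKM, its coverage in B2 was 50.3 or more. All 12 progenitor markers examined had means of 10 FPKM or more, among them *Sox2*, a transcription factor of neural stem cells, with 558, 592, 406 and 356 FPKM in A1, A2, B1 and B2. The replicates did not hold the same mixture of marker RNA. The summed FPKM of 16 mesenchymal and meningeal markers was 823 in A1 and 808 in A2, against 3114 in B1 and 4222 in B2. Of the 16, 15 were at least 2-fold higher in replicate B without overlap between the libraries, a pattern shown by 4.58% of all names with a mean of at least 1 FPKM, while 1.57% were higher in A. In bulk RNA more cells of a type and more RNA per cell cannot be told apart. By the same rule 0 of 8 neuronal markers with a mean of 1 FPKM or more differed, 1 of 8 astrocyte markers was higher in B (*Gjb6*, with 0.553, 0.577, 0.901 and 6.20 FPKM in A1, A2, B1 and B2, so through B2) and 1 higher in A (*S100b*), and 1 of 5 markers of the oligodendrocyte lineage was higher in B, *Pdgfra*, with 9.50, 9.09, 59.5 and 59.4 FPKM in A1, A2, B1 and B2. Lists of endothelial, microglial and erythroid markers summed to at most 4.46 FPKM in any library.

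Most genes of the list were expressed, and the typical level was high. A mean of at least 1 FPKM was found for 32 of the 37 genes, against 60.5% of all gene names. A mean of at least 10 FPKM was found for 26 genes (38.3% of all names) and at least 100 FPKM for 12 genes (6.1% of all names). The median over the list was 47.6 FPKM. The median of all names with a mean of at least 1 FPKM was 16.6, and 22 genes of the list lay above it. Together the 37 genes took between 0.786% and 0.844% of the FPKM of all names in a library. The 5 genes below 1 FPKM were *Slc2a3*, *Slc16a7*, *Pklr*, *Ldhc* and *Hk3*, most of which are isoforms known from other tissues: liver pyruvate kinase for *Pklr*, the testis form of lactate dehydrogenase for *Ldhc*, and a hexokinase of blood cells for *Hk3*.

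**Figure D1:**
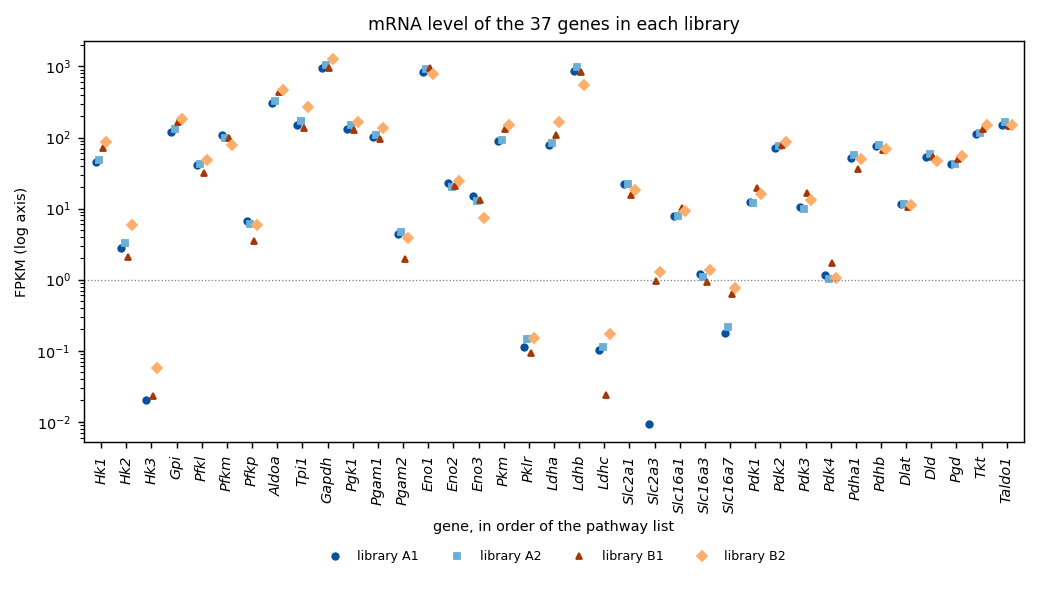
FPKM of the 37 genes on a log axis, with 1 point for each of the libraries A1, A2, B1 and B2 and a dotted line at 1 FPKM; values of 0 (*Hk3* and *Slc2a3* in A2) are not drawn. The highest points are those of *Gapdh*, *Eno1* and *Ldhb*, and 5 genes have means below 1 FPKM.

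The enzymes *Gapdh*, *Eno1* and *Ldhb* had the highest means of the list. *Gapdh*, which encodes the enzyme that oxidises glyceraldehyde 3-phosphate, had 948 and 1052 FPKM in A1 and A2 and 949 and 1275 FPKM in B1 and B2, a mean of 1056 ± 79.3 FPKM and rank 77 among all gene names. *Eno1*, the broadly expressed enolase, had 826, 923, 961 and 777 FPKM in A1, A2, B1 and B2, a mean of 872 ± 3.81. *Ldhb*, the lactate dehydrogenase subunit typical of heart and of oxidative tissue, had 858, 968, 836 and 544 FPKM, a mean of 801 ± 158. The order of these genes was not the same in every library, and *Eno1* and *Ldhb* did not differ beyond their spread. *Aldoa*, an aldolase found in muscle and most other tissues, followed with 382 ± 96.4 FPKM, below *Ldhb* in each library. Of the 36 pairs of neighbours in the order of the 37 genes, 7 were apart by more than the sum of their SDs and kept their order in each of the 4 libraries, so that most places in the order are not fixed by these data.

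The level of *Eno1* depends on which deposited column is read. For 35 of the 37 genes the ratio of coverage to FPKM was within 1% of the median of its library. For *Eno1* the ratio was 45.0% of that median in each library, and a level computed from its coverage would be 392 FPKM instead of 872. For *Aldoa* the ratio was 89.4% to 89.5%. The factor was the same in all libraries, so it bears on the place of *Eno1* and *Aldoa* among the genes and not on their differences between libraries. Several of these enzymes, *Gapdh* above all, also have processed pseudogenes, and how shared reads were assigned is not given in the sources used here.

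*Tpi1* and *Eno2* are listed at 2 loci each in rn6. *Tpi1*, which encodes triose-phosphate isomerase, lies on chromosome 4 from 157328375 to 157331905, minus strand, and again on chromosome 9 from 20213752 to 20217282, plus strand. The loci had 76.0 and 76.2 FPKM in A1, 85.1 and 85.1 in A2, 69.1 and 69.0 in B1, and 133 and 134 in B2. *Eno2*, the enolase of neurons, lies on chromosome 4 from 157285193 to 157294037, minus strand, and again on chromosome 9 from 20251620 to 20260464, plus strand. Its loci had 11.6 and 11.7 FPKM in A1 and 10.3 and 10.5 FPKM in B1. The pairs had nearly equal values in every library, and the sum is used here, which gives *Tpi1* a mean of 182 ± 29.0 FPKM. With the higher locus alone *Tpi1* would be at 91.0 and *Eno2* at 11.1 FPKM instead of 22.0.

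Levels were uneven along the pathway. Summed over the isoenzymes of a step, the entry of glucose had the lowest levels of glycolysis: the classical glucose transporters, *Slc2a1* to *Slc2a4*, summed to 21.3 ± 2.69 FPKM (47.7 ± 1.09 with all 8 *Slc2a* genes examined) and the hexokinases to 66.3 ± 23.9 FPKM. Phosphofructokinase, the main control point of glycolysis, summed to 142 ± 13.7 FPKM. Aldolase reached 939 ± 78.4 FPKM, GAPDH 1056 ± 79.0, enolase 907 ± 6.37 and lactate dehydrogenase 911 ± 117. From coverage, the enolase sum was 427 ± 4.26. Between these stood steps at a lower level, with 182 ± 29.0 FPKM for triose-phosphate isomerase (91.0 with a single locus), 144 ± 2.53 for phosphoglycerate kinase, 115 ± 6.19 for phosphoglycerate mutase and 116 ± 35.2 for pyruvate kinase. An mRNA level is not an enzyme activity, and the steps cannot be ranked by flux from these values.

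Each step with several isoenzymes was then examined for the gene that supplied most of its FPKM. *Hk1*, the hexokinase of brain, took 94.5 ± 1.21% of hexokinase FPKM and led in 4 of 4 libraries. It lies on chromosome 20 (rn6, 31911460 to 31979780, minus strand) and had 45.0 and 47.6 FPKM in A1 and A2 and 71.8 and 86.7 FPKM in B1 and B2. *Hk2*, the growth- and hypoxia-inducible hexokinase, had 2.75 and 3.26 FPKM in A1 and A2 and 2.08 and 5.87 in B1 and B2. Its libraries of replicate B thus lay on either side of those of replicate A.

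Among the phosphofructokinases, which form mixed tetramers, the muscle-type *Pfkm* took 67.3 ± 1.59% of the FPKM, the liver-type *Pfkl* 28.8 ± 2.03% and the platelet-type *Pfkp* 3.86 ± 0.443%. The level of *Pfkm* was 109, 98.8, 97.5 and 77.4 FPKM and its share 69.7%, 67.2%, 73.3% and 59.1% in A1, A2, B1 and B2. For the share, B1 was the highest and B2 the lowest of the libraries, so the technical libraries of B differed more than the replicates. Without B2 the mean share would be 70.9%.

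*Eno1* took 96.1 ± 0.257% of enolase FPKM, against 2.46 ± 0.102% for the neuronal *Eno2* and 1.33 ± 0.286% for the muscle form *Eno3*. With the level of *Eno1* computed from coverage, its share was 91.7%. *Pgam1*, the brain-type phosphoglycerate mutase, had 102, 109, 94.1 and 138 FPKM in A1, A2, B1 and B2. It took 96.7 ± 1.28% against 3.27 ± 1.28% for the muscle form *Pgam2*. *Pkm* took 99.886% of pyruvate kinase FPKM, with 88.8 and 93.3 FPKM in A1 and A2 and 132 and 149 FPKM in B1 and B2. All libraries of B lay above those of A. Values for whole genes do not separate the M1 and M2 splice forms of *Pkm*. The testis paralogs *Gapdhs*, *Pgk2* and *Pdha2* had at most 0.424, 0.00834 and 0 FPKM in any library, while *Pgk1*, the phosphoglycerate kinase of most tissues, had 134, 151, 127 and 165 FPKM in A1, A2, B1 and B2. For *Pgam1* and *Pgk1* B1 was the lowest and B2 the highest library.

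**Figure D2:**
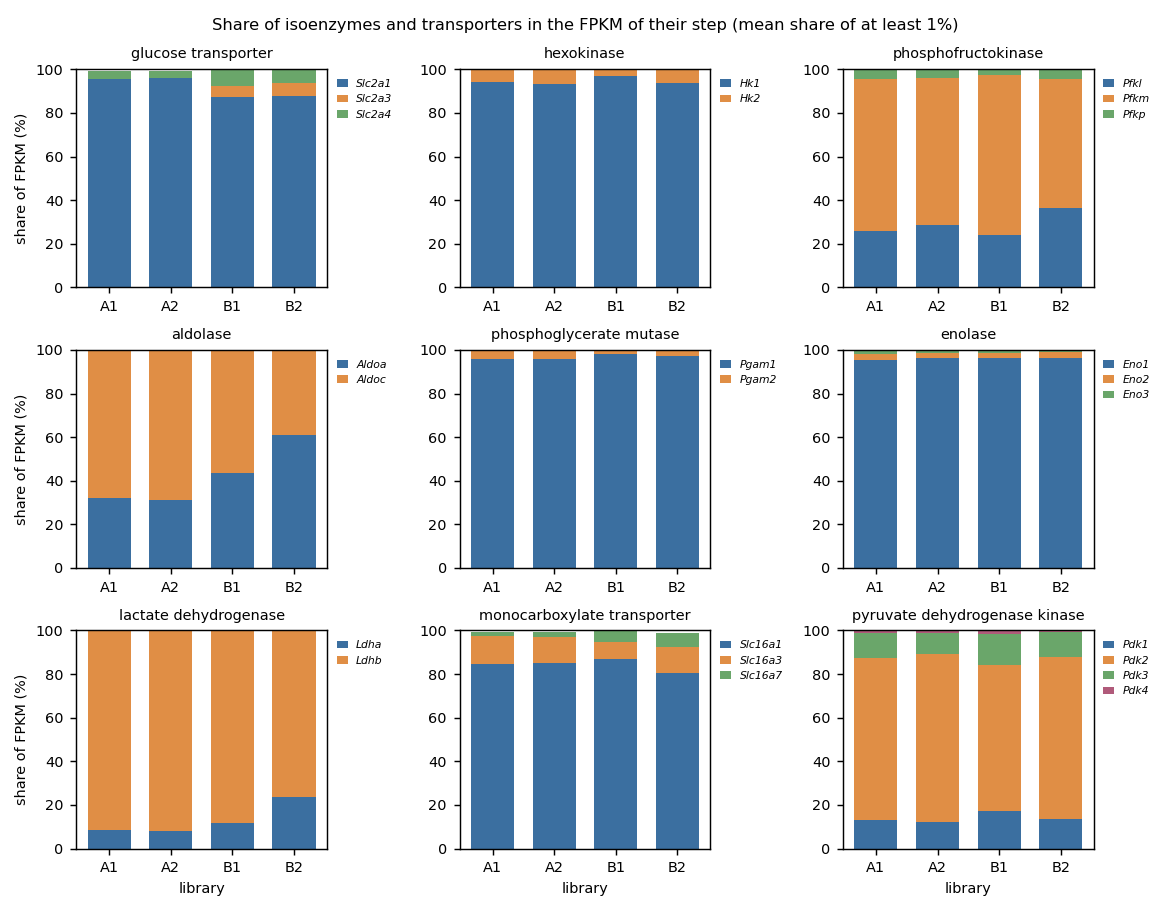
Share of isoenzymes and transporters in the summed FPKM of their step, in percent, for 9 steps and the libraries A1, A2, B1 and B2; genes with a mean share under 1% are not drawn, so that bars can end below 100. Among the genes compared the leading one is the same in every library at 8 of the 9 steps (glucose transporters: *Slc2a1* to *Slc2a4* only), and at the aldolase step *Aldoa* passes *Aldoc* in B2, where it takes 61.0%.

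At the aldolase step the leading gene differed between libraries. *Aldoc*, the aldolase of brain and a marker of astrocytes and radial glia, is not in the list of 37 and was examined as an isoenzyme of *Aldoa*. *Aldoc* had 644, 715, 568 and 297 FPKM in A1, A2, B1 and B2, and *Aldoa* had 302, 327, 437 and 465 FPKM. The share of *Aldoc* was 68.1% and 68.7% in A1 and A2, 56.6% in B1 and 39.0% in B2, a mean of 58.1 ± 14.6%. *Aldoc* led in both libraries of A and in B1, and *Aldoa* led in B2. With levels from coverage the share of *Aldoc* was 70.4%, 71.0%, 59.3% and 41.7%, in the same order of libraries. The summed aldolase FPKM was 947, 1042, 1005 and 762, so it varied less than the ratio of *Aldoc* to *Aldoa*, which was 2.13, 2.19, 1.30 and 0.639.

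The balance of the lactate dehydrogenase subunits varied in the same order of libraries. *Ldha*, the subunit of muscle and of strongly glycolytic cells, lies on chromosome 1 (rn6, 102900288 to 102909707, plus strand), and *Ldhb* on chromosome 4 (176701985 to 176719891, minus strand). *Ldha* had 78.2 and 83.5 FPKM in A1 and A2, 109 in B1 and 168 in B2. The libraries of the replicates did not overlap, with replicate B higher for *Ldha* and lower for *Ldhb*. *Ldhb* exceeded *Ldha* by a factor of 11.0 and 11.6 in A1 and A2, 7.64 in B1 and 3.24 in B2. *Ldhb* took 91.6%, 92.0%, 88.4% and 76.4% of the FPKM of the step, a mean of 87.1 ± 6.66%, and led in each library. The distance between B1 and B2 in this share was larger than that between A2 and B1.

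**Figure D3:**
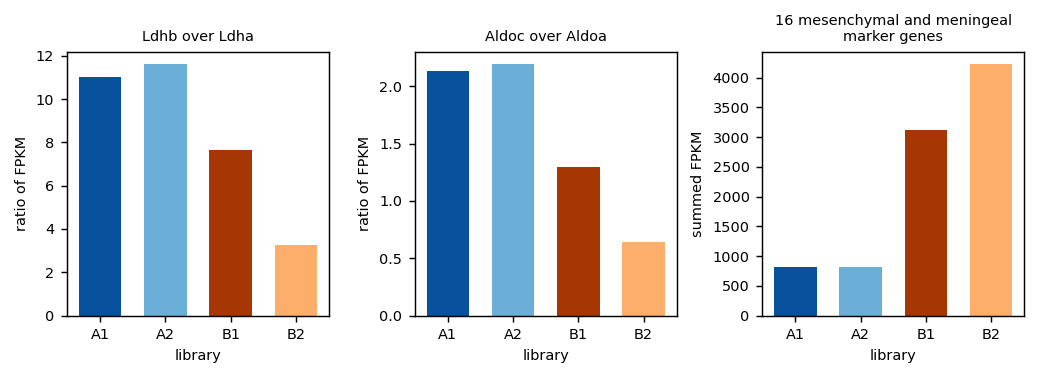
Ratio of FPKM of *Ldhb* to *Ldha* (left) and of *Aldoc* to *Aldoa* (middle), and summed FPKM of 16 mesenchymal and meningeal marker genes (right), with 1 bar for each of the libraries A1, A2, B1 and B2. Both ratios are highest in A2 and lowest in B2 (11.6 and 3.24, 2.19 and 0.639). The marker sum is lowest in A2 and highest in B2 (808 and 4222). From B1 to B2 the markers *Ptgds* (8.18 to 292 FPKM) and *Igf2* (131 to 399) rise most, while *Postn*, *Lum*, *Thy1* and *Twist2* fall.

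The lower *Ldhb* and *Aldoc* and the higher *Ldha* and *Aldoa* in B1 and B2 stand beside the higher mesenchymal and meningeal markers of the same libraries, such as the collagen gene *Col1a1* with 169, 157, 685 and 785 FPKM in A1, A2, B1 and B2, and the part of these cells in the ratios was not tested. The 12 progenitor markers had a median difference of -0.49 between replicates B and A on the log2(FPKM + 1) scale, against -0.03 over all names tested. At least 2-fold lower in B without overlap were 2 of the 12 (*Fabp7* and *Hes5*), against 1.57% of all names. The 8 neuronal markers with a mean of 1 FPKM or more had a median difference of -0.45, close to that of the progenitor markers. The lower values in B were thus not particular to the progenitor markers.

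For the lactate dehydrogenase pair, the promoters as annotated by RefSeq on the GRCr8 assembly are shown, from 250 bases before to 50 bases after the annotated start, as an example of isoenzyme genes of 1 step. Neither gene reached a 2-fold difference between the replicates, and without B2 *Ldhb* differed by -0.12 on the log2(FPKM + 1) scale. Capitals mark ACGTG and GCGTG, the core of hypoxia response elements, on either strand, where the reverse strand reads as CACGT and CACGC. An E-box, CACGTG, holds ACGTG on both strands and counts as 2 overlapping matches.
Ldha, chr1:106507842-106508141, plus strand: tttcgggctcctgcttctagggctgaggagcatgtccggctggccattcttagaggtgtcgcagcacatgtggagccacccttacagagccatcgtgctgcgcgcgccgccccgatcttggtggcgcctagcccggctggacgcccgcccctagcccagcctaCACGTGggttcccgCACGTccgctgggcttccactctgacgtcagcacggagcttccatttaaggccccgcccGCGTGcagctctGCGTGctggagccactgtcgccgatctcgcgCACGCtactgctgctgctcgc
Ldhb, chr4:177177359-177177658, minus strand: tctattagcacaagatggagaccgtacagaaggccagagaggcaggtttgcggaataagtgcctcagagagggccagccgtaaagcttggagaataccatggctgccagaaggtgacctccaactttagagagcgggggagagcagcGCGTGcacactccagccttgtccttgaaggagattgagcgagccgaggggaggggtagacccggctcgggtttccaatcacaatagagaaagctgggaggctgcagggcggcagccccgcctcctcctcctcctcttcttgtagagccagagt

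The *Ldha* window held 6 matches, including an E-box, and the *Ldhb* window held 1. For the aldolase pair the windows held 0 matches for *Aldoa* and 3 for *Aldoc*. Of the 11 genes of the list with both libraries of B above both of A, 6 had a match (*Gpi*, *Ldha*, *Pdk1*, *Pdk2*, *Pdk3* and *Slc16a1*), and of the 9 with both below, 8 had one (all but *Pgam2*). Of the 35 genes of the list with a promoter in the RefSeq table, 23 (65.7%) had a match to ACGTG or GCGTG, against 41.6% of 33469 promoters of the same length. Both strings contain a CpG, and the 33469 promoters were not matched to the list for CpG content or expression. Whether the higher share goes with CpG content was not tested. The *Ldha* window held 29 CpG and the *Ldhb* window 12. A match is a string of letters, and neither binding nor activity was measured at these promoters.

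Among the glucose transporters, *Slc2a1*, the main carrier of glucose into brain cells, had 22.5 and 22.0 FPKM in A1 and A2 and 15.5 and 18.4 FPKM in B1 and B2. Both libraries of B lay below those of A. *Slc2a1* took 91.5 ± 5.92% of the summed FPKM of *Slc2a1* to *Slc2a4*, and 41.3 ± 8.64% when all 8 *Slc2a* genes examined were summed. The highest of the added genes was *Slc2a8*, an intracellular member of the family outside the list of 37, which had 21.0, 17.4, 18.1 and 15.2 FPKM in A1, A2, B1 and B2. *Slc2a8* was below *Slc2a1* in A1, A2 and B2 and above it in B1. *Slc2a3*, the neuronal glucose transporter, had 0.00925 FPKM in A1, was listed at 0 in A2, and had 0.957 FPKM in B1 and 1.28 FPKM in B2. The libraries of B lay above those of A, at about 1 FPKM. *Slc2a3* is listed at 2 neighbouring loci in 3 of the libraries and as a single span in A2, and the values here are sums. Its loci had nearly equal values, with 0.479 and 0.478 FPKM in B1 and 0.641 and 0.640 FPKM in B2. The level of about 1 FPKM thus rests on adding the loci.

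*Slc16a1*, which encodes the lactate and pyruvate carrier MCT1, took 84.3 ± 1.05% of the FPKM of the monocarboxylate transporters, with 7.98, 7.94, 10.1 and 9.19 FPKM in A1, A2, B1 and B2 and a mean of 8.81 ± 1.21. *Slc16a3*, the carrier of lactate-exporting cells, had 1.19, 1.09, 0.930 and 1.35 FPKM in A1, A2, B1 and B2, a mean of 1.14 ± 0.00194. This SD is small because B1 and B2 lay on either side of A and averaged to the same level. *Slc16a7*, the high-affinity carrier of neurons, had 0.179, 0.213, 0.619 and 0.767 FPKM in A1, A2, B1 and B2, all below 1. *Bsg*, the chaperone of these carriers, was outside the list of 37 and had 242 ± 50.6 FPKM.

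The subunits of the pyruvate dehydrogenase complex were expressed at unequal levels. *Pdhb* and *Pdha1*, the subunits of the decarboxylase, had means of 72.7 ± 6.20 and 48.7 ± 7.84 FPKM. *Pdha1* had 51.7 and 56.9 FPKM in A1 and A2 and 36.2 and 50.2 FPKM in B1 and B2, with both libraries of B below those of A. *Dld*, a subunit shared with other dehydrogenase complexes, had 52.9 ± 3.75 FPKM. *Dlat*, the acetyltransferase core, had 11.6, 11.7, 10.6 and 11.3 FPKM in A1, A2, B1 and B2 and was the lowest of the subunits in the list in each library. *Pdhx*, the protein that binds *Dld* to the core, was outside the list and stood close to *Dlat* with 9.19 ± 0.188 FPKM. The carriers that bring pyruvate into the mitochondria, *Mpc1* and *Mpc2*, had 126 ± 25.3 and 230.3 ± 14.9 FPKM.

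*Pdk2* was the leading pyruvate dehydrogenase kinase, with 70.6, 76.7, 77.8 and 87.0 FPKM in A1, A2, B1 and B2 and 73.2 ± 3.51% of the FPKM of the kinases. *Pdk1*, the hypoxia-inducible kinase, took 14.0 ± 2.00%, *Pdk3* 11.6 ± 1.47% and *Pdk4*, a kinase induced by fasting, 1.17 ± 0.0398%. *Pdk1* had 12.3 and 12.1 FPKM in the libraries of A and 19.7 and 16.1 FPKM in those of B. The libraries of A and B did not overlap for *Pdk1*, *Pdk2* and *Pdk3*, a pattern with B higher that 28.1% of all names showed, and none of these genes reached a 2-fold difference.

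In the pentose phosphate pathway the enzymes of the non-oxidative branch had the highest levels. *Taldo1*, which encodes transaldolase, had 149, 165, 146 and 149 FPKM in A1, A2, B1 and B2, a mean of 152 ± 6.95. *Tkt*, transketolase, had 112 and 117 FPKM in A1 and A2 and 129.9 and 149.6 FPKM in B1 and B2, a mean of 127 ± 17.6. *Pgd*, of the oxidative branch, had 47.6 ± 7.03 FPKM. Outside the list, the lactonase gene *Pgls* of the oxidative branch had 54.6 to 72.9 FPKM, while *Rpia* and *Rpe*, which convert pentose phosphates, had 19.5 ± 4.69 and 18.1 ± 0.192 FPKM.

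The replicates were compared for the 32 genes whose mean reached 1 FPKM. A gene was called different when the means of log2(FPKM + 1) differed by at least 1, which is 2-fold on that scale and understates the change of low genes, and when the libraries of A and B did not overlap. No p-value was computed, since the replicates are 2 cultures of a single condition. None of the 32 genes was called higher in B, where 4.58% of 10481 gene names were, and none was called higher in A, where 1.57% were. At a log2 difference of at least 0.58, 3 genes were called higher in B (9.33% of all names) and 0 higher in A (7.19%). These were *Hk1*, with a difference of 0.76, *Ldha* with 0.74 and *Pkm* with 0.62. The B2 library alone set *Ldha* 1.04 above the mean of A, and B1 alone 0.43.

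The differences ran in either direction. By overlap alone, 11 of the 32 genes had both libraries of B above both of A, a pattern shown by 28.1% of all names, and 9 had them below, as did 32.0% of all names. The higher ones were *Hk1*, *Ldha*, *Pkm*, *Aldoa*, *Pdk1*, *Pdk3*, *Gpi*, *Pgd*, *Tkt*, *Slc16a1* and *Pdk2*. The lower ones were *Pgam2*, *Ldhb*, *Pfkp*, *Slc2a1*, *Pdha1*, *Pfkm*, *Pdhb*, *Dlat* and *Taldo1*. *Gpi*, which encodes glucose-6-phosphate isomerase, had 121 and 134 FPKM in A1 and A2 and 166 and 185 FPKM in B1 and B2. The median difference over the 32 genes was 0.08, against -0.03 over all names tested, and without B2 it was -0.07. The median absolute difference was 0.25 for the list and 0.24 for all names.

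**Figure D4:**
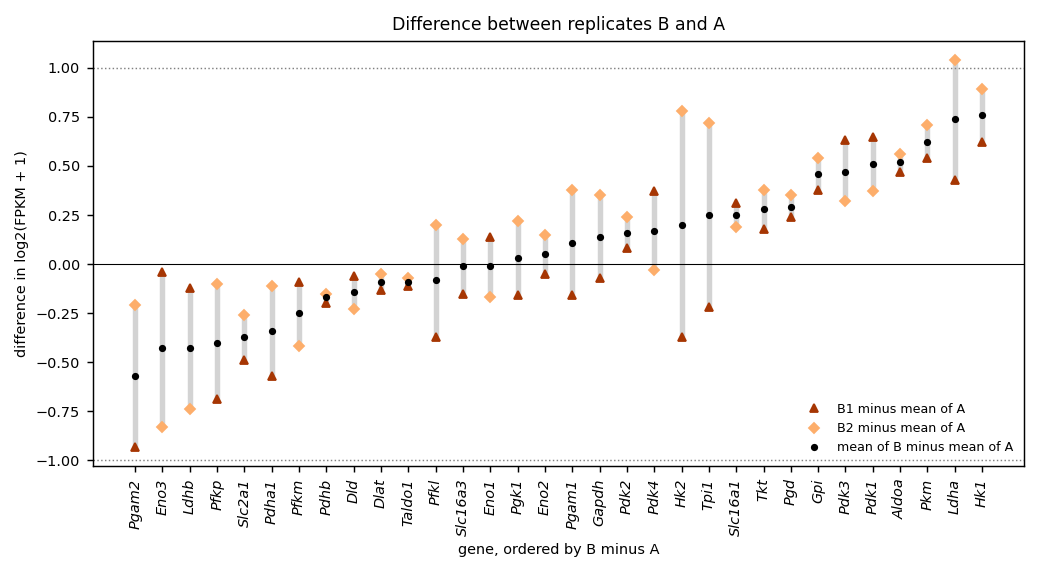
Difference between replicates B and A in log2(FPKM + 1) for the 32 genes whose mean reached 1 FPKM, ordered by the mean difference (black); triangles and diamonds give B1 and B2 alone against the mean of A, and dotted lines mark differences of 1. The means lie between -0.57 for *Pgam2* and 0.76 for *Hk1*, and B2 alone places *Ldha* above 1.

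The technical libraries of replicate B were further apart than those of replicate A. On the log2(FPKM + 1) scale, A1 and A2 differed by a median of 0.10 in absolute value over the 32 genes, against 0.11 over all names tested. B1 and B2 differed by a median of 0.29 over the 32 genes, against 0.22. None of the 32 genes was 2-fold apart between A1 and A2 (0.153% of all names) and 1 was between B1 and B2 (2.80% of all names). This was *Hk2*, 2.23-fold higher in B2 on the same scale. *Tpi1* was 1.92-fold higher in B2 than in B1. For *Hk2*, *Tpi1*, *Gapdh*, *Pgk1*, *Pgam1* and *Eno2* the mean of B lay above that of A, but B1 alone lay below it, with differences from A of -0.37, -0.22, -0.07, -0.16, -0.16 and -0.05. Their direction between replicates thus rests on B2, the library with the least depth, and with TPM in place of FPKM the difference of *Pgk1* was -0.02 instead of 0.03. For *Pfkl*, *Slc16a3*, *Eno1* and *Pdk4* B1 and B2 also lay on opposite sides of the mean of A.

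Other genes of the pathway, 41 of 42 symbols found, were compared in the same way. Of the 29 whose mean reached 1 FPKM, 1 was called higher in B and 0 higher in A, where the shares of all names were 4.58% and 1.57%, and the median difference was 0.16. The gene called was *Slc2a12*, a glucose transporter, with 1.58, 1.76, 2.71 and 10.9 FPKM in A1, A2, B1 and B2. Its high value is that of B2. *Bpgm*, which makes 2,3-bisphosphoglycerate, had 80.5 ± 15.5 FPKM. Of a list of 25 symbols of hypoxia-responsive genes outside the pathway, 20 were found and 18 reached a mean of 1 FPKM. In this list 3 were called higher in B and 0 higher in A, against the same 4.58% and 1.57% of all names, with a median difference of -0.05. These were *Adm*, *P4ha2* and *Ndrg1*. *P4ha2*, a collagen prolyl hydroxylase, had 4.33 and 4.09 FPKM in A1 and A2 and 14.8 and 15.9 FPKM in B1 and B2. Other genes of this list were lower in B without overlap but short of 2-fold, among them *Ddit4* (-0.75) and *Kdm3a* (-0.61).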

How the data were processed

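PolyA RNA-seq of 4 libraries was used, grouped by the biological replicate and technical library in the sample labels. The authors aligned reads to rn6 with STAR and deposited a table per library in the layout of StringTie. FPKM was computed by the authors and used as deposited. Their methods name other R packages for it (Rsubread among them), while the column layout is that of StringTie. The authors' TPM, which sum to 1000000 per library, served as an alternative. The deposited coverage is the unscaled read depth of a gene and gave the depth. Tool versions are not given in the sources used here.

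Loci that share a gene name were added up, and technical libraries were averaged within replicates A and B. Shares of isoenzymes were computed in each library. Calls between replicates needed a mean of at least 1 FPKM, a difference of at least 1 in log2(FPKM + 1) and no overlap. They were made over all names with that mean, and no test was run. The call rule was tested on simulated data. By rule, the values per library were given for genes of the list at 100 FPKM or more, for the leading isoenzyme of a step, and for genes of the list called between replicates or 2-fold apart between technical libraries. Others are given by means, shares or counts, with values per library for some. Other pathway genes were named at 50 FPKM or more, as isoenzymes, or when called, and *Slc2a8*, *Pdhx*, *Rpia* and *Rpe* were named after their values were seen. Some genes that the rule names are not reported here. The genes and lists were chosen with earlier results of these data known. Alternatives are given in the closing section. Promoters came from RefSeq (GRCr8), matched by symbol for 35 of 37 genes. Python 3.11.15, pandas 2.3.3, numpy 2.4.6 and matplotlib 3.10.9 were used.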

Additional observations from a re-analysis of the deposited data

Results flagged for a closer look

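Of 51 values examined for a library that lies far from the other 3 (the FPKM of 37 genes and the share of the leading gene at 14 steps), 2 were found, where the gap to the nearest of the others took most of the range. With independent samples about 1 in 20 such values arises by chance. These libraries are technical pairs and not independent. The share of *Hk1* in hexokinase FPKM was 97.1% in B1 and between 93.3% and 94.0% in the other libraries. The share of *Pgk1* in phosphoglycerate kinase FPKM was 99.994% in A2, the only library in which *Pgk2* was above 0.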

How the results depend on the processing

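Of 98 alternatives computed for 22 results, 86 kept the direction and shifted the value by under 1 SD of the replicates (counts by no more than 1.5 times). Leaving out 1 of 2 replicates cannot move a mean share by more than their SD, so those alternatives say little about stability. Without replicate A the share of *Aldoc* was 47.8% and *Aldoa* led, and without replicate B it was 68.4%. Without B2 the share of *Pfkm* was 70.9% and that of *Slc16a1* 85.9%. The genes called different between replicates numbered 3 at a log2 difference of 0.58 and 1 with no filter on low values (*Slc2a3*), against 0. With each technical library left out they numbered 0 to 1, the call being *Ldha* without B1, and the median difference ranged from -0.07 (without B2) to 0.20 (without B1). With the higher locus alone, chosen after seeing the data, *Tpi1* had 91.0 and *Eno2* 11.1 FPKM and the share of *Eno1* was 97.3%. With levels from coverage, also chosen afterwards, that share was 91.7%. With all 8 *Slc2a* genes in place of *Slc2a1* to *Slc2a4*, chosen afterwards too, the share of *Slc2a1* was 41.3%. By construction the higher locus removes the part of the other locus, and summing more genes lowers a share. For the other changes the cause was not tested. The difference between A and B could not be computed without a whole replicate. No paired analysis was possible because all libraries belong to 1 condition. The lower depth of B2 limits the values of low genes.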
